A study of Xenopus laevis with 9 samples.

Results

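The neuronal, synaptic and axon guidance genes of the *Xenopus laevis* GeneChip were followed through lens regeneration from the cornea. They were chosen by gene name: a probeset (a set of array probes made for 1 transcript) was taken if its annotation gave a single gene symbol that belongs to a fixed set of families. These were the β tubulins, stathmins, neurofilaments, gap43, dpysl, elavl, neurod, neurog, synaptotagmins, synapsins, SNAP proteins, secretogranins, amphiphysin, gad, ncam, contactins, neurexins, slit, robo, semaphorins, plexins, neuropilins and reticulons. Of the transmitter receptors, only the families gria, grin, gabr and chrn were taken. This gave 91 of 15476 probesets, which stand for 67 genes. Because *X. laevis* is allotetraploid, many genes exist as a pair of homoeologs, written .L and .S, and the 91 probesets carried 78 symbols. A further 4 probesets, for stmn2, ncam1, elavl2 and gap43, were annotated to both homoeologs and were not members.

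When the lens of a tadpole is removed, cells of the outer cornea can turn into a new lens, a process called cornea to lens transdifferentiation (CLT). Gene expression was measured on 9 arrays in 3 groups of wild type tadpoles at stage 50, with 3 pools of tissue in each. L1, L2 and L3 were whole excised lenses, R1, R2 and R3 were corneas taken 3 days after the lens had been removed (undergoing CLT), and S1, S3 and S4 were corneas taken 3 days after a sham operation that left the lens in. The labels give 5 lenses for an L pool and 7 to 8 corneas for an R or S pool, while the study's methods give larger groups of both tissues; the sources thus disagree on pool size. The R corneas came from the animals that had given the L lenses. The inner cornea was ruptured in the lens removal and left intact in the sham operation, so that R and S differ in more than lens loss. All dissected corneas, of R and of S, held some epidermis.

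Neurons extend axons whose growth cones are driven by tubulin and its regulators, steered by guidance ligands such as the slits and semaphorins through robo, plexin and neuropilin receptors, and converted to synapses where SNARE and synaptotagmin proteins fuse vesicles and transmitter receptors answer. The cornea is a densely innervated tissue, whose nerve endings are processes of cells that lie elsewhere, while the lens has no nerves. Many genes of these families are also used outside the nervous system: SNAP23 and SNAP29 serve membrane fusion in most cells, several tubulins and reticulons are found in most tissues, and NCAM and the semaphorins act in epithelia.

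The values are RMA intensities, linear and with no unit, and differences between groups are given on the log2 scale from limma, fitted on all 15476 probesets with Benjamini-Hochberg adjustment. A probeset is called where its adjusted p is under 0.05. Differences are tested between arrays of 1 probeset and never between probesets. Intensities of different probesets are set side by side only to sort them as bright or dim and in sums over lists. The median intensity of the arrays was 2.99 to 3.29, and the upper quartile was 8.99 to 9.86 in L, against 17.5 to 20.4 in R and S. Log2 intensities correlated at a median of 0.937 between R arrays and 0.988 between S arrays, and at 0.953 between an R and an S array. The variance over probesets of S4 about the S1 and S3 average was 0.232 of that between S1 and S3, where 3 arrays with equal independent errors would give 0.75 and an array with no error of its own 0.25. Over all probesets R3 was the R array least like the others, at 0.937 with R1 and 0.935 with R2, against 0.959 between R1 and R2. The array R2 stood apart in retina genes. The lead counts between R and S are therefore also given without R2 and S4. They were not made without R3. Markers followed the tissue labels: all 8 measured lens genes were higher in L than in S, and all 10 epithelial, 7 stromal and 7 leukocyte genes were lower.

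Of the members, 44 had a mean under 3 in all 3 groups, at or under about the median of the arrays, and 35 had a mean above 8 in some group (38.5%, against 44.2% of all probesets). Some genes typical of neurons were among the dim ones. Others were not: tubb3.L had a mean of 95.7 in L and syt1.L a mean of 63.5 in R. The 3 neurofilament probesets, for nefl.L, nefm.L and nefm.S, which encode intermediate filaments of axons, lay between 1.0 and 2.59 on every array. The 3 probesets of neurog2, which encodes a transcription factor that starts neuron formation, lay between 0.871 and 2.07. The 5th percentile of the arrays was 0.984 to 1.06, and 2 members lay under it on every R array, 3 on every S array and 0 on every L array. In bulk tissue, fewer cells of a type and less RNA per cell cannot be told apart.

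In corneas undergoing CLT, 1 member was higher than in sham operated corneas, rtn4.S, and 1 was lower, snap29.L. Together these are 2 of 91 members (2.20%), while 1.12% of all probesets were called. By direction, 0.485% of all probesets were higher and 0.640% lower. Below the level of single calls, the members leaned upward: 77 of 91 had an R mean above the S mean (84.6%, against 57.5% of all probesets), with a median log2 difference of 0.25 where all probesets had 0.06. At an unadjusted p under 0.05, 17 members were higher (18.7%, against 7.83% of all) and 2 lower (2.20%, against 6.64%). Every R array lay above every S array for 28 members (30.8%, against 12.3% of all), and below it for 3 (3.30%, against 9.82%). No p is given for these counts over the list.

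Lens markers also leaned upward. The 8 measured lens genes summed to 57.0, 11.6 and 26.1 in R1, R2 and R3, against 10.2, 9.22 and 10.1 in S1, S3 and S4, with R2 the lowest of the R arrays. None of the 8 was called between R and S, 6 were higher at an unadjusted p under 0.05, 5 did not overlap, and their median log2 difference was 0.95. Of 8 skeletal muscle genes, tnnt3.S, a troponin gene, was called higher in R (0.96, adjusted p = 0.0202). The list summed to 105, 107 and 86.7 in R, against 101, 110 and 98.4 in S. Most of this sum was ckm.L, at 82.6, 85.9 and 59.7 in R, against 88.1, 94.01 and 85.4 in S. The sum thus says little about the other muscle genes. Of the 8, 2 were higher at an unadjusted p under 0.05 and 0 lower, and 3 lay higher in R without overlap. Their median log2 difference was 0.081. Tnni2.S, another troponin gene, had 1.304 and was not called (adjusted p = 0.104). The part of lens or muscle RNA in the members' values was not tested.

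The upward lean was counted again without R2, without S4 and without both, but not without R3. Without R2 there were 71 members above S (78.0%, against 56.6% of all), without S4 77 (84.6%, against 55.8%) and without both 68 (74.7%, against 54.7%). Members higher at an unadjusted p under 0.05 numbered 13 without R2 (14.3%, against 8.81%), 8 without S4 (8.79%, against 4.59%) and 11 without both (12.1%, against 5.43%). Every R array lay above every S array for 33 members without R2 (36.3%, against 21.3%), 33 without S4 (36.3%, against 15.0%) and 37 without both (40.7%, against 24.1%).

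**Figure D1:**
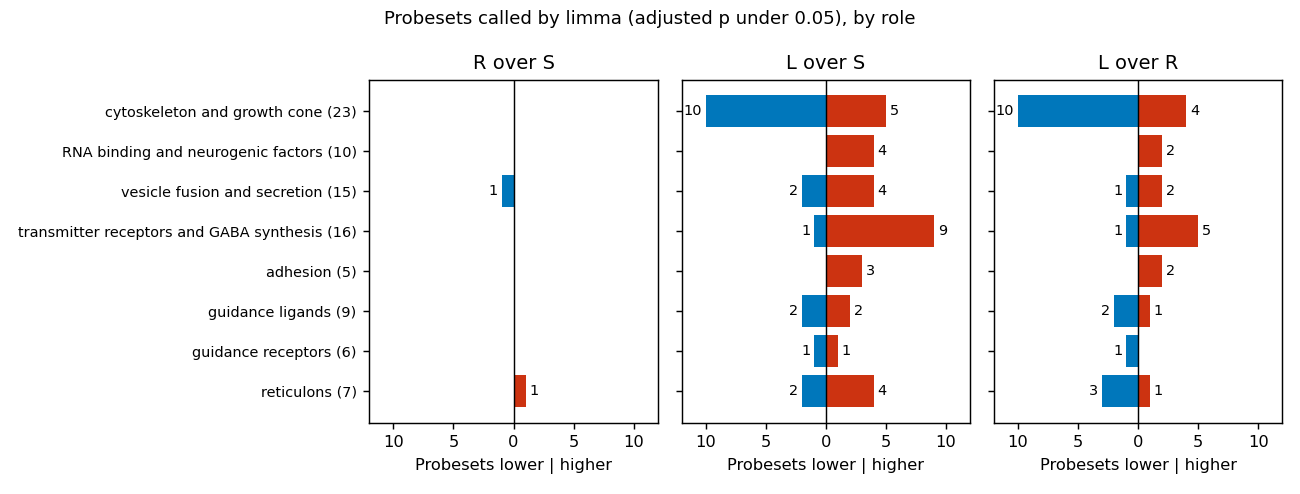
Number of probesets called in limma (adjusted p under 0.05) in each comparison, by role, with the number of probesets in the role in brackets; bars to the right count probesets higher and bars to the left probesets lower in the group named first. Between R and S only rtn4.S and snap29.L were called. Between L and S the cytoskeleton genes had 10 lower and 5 higher and the transmitter genes 9 higher and 1 lower. Of all probesets, 1.12% were called between R and S, and 22.9% were higher and 30.6% lower between L and S.

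The reticulon rtn4.S showed the clearest difference between corneas undergoing CLT and sham operated corneas. Rtn4, also called Nogo, encodes a membrane protein that shapes the endoplasmic reticulum and, in mammals, inhibits axon growth. Its probeset read 44.0, 43.6 and 32.8 in R1, R2 and R3, against 10.7, 13.0 and 11.1 in S1, S3 and S4. The lowest R array was above the highest S array by far more than either group's spread, and the difference on the log2 scale came to 1.78 (SE 0.19, limma adjusted p = 0.00339). With the array number as a block the adjusted p was 0.135, and without R2 and S4 together it was 0.0563. The homoeolog rtn4.L was not called: it read 616, 478 and 515 in R, against 429, 570 and 419 in S, so that the groups overlapped (log2 difference 0.19, adjusted p = 0.693).

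Snap29.L, which encodes a SNARE protein found in most cells and used in trafficking and autophagy, was the member that fell. It read 12.3, 12 and 7.89 in R1, R2 and R3, against 27.0, 21.7 and 21.7 in S1, S3 and S4, a log2 difference of -1.15 (SE 0.21, limma adjusted p = 0.0423). The groups did not overlap. The call was near the threshold and was lost when L1, L2, L3, R3, S1, S3 or S4 was left out (adjusted p between 0.0570 and 0.164), when only R and S were fitted (0.118) and with the array number as a block (0.286).

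The members next in order were genes of the axon cytoskeleton and of adhesion, and none of them was called. Tubb2b.S, a β tubulin gene of differentiating neurons, read 101, 201 and 124 in R, against 64.2, 63.1 and 59.0 in S (log2 difference 1.13, SE 0.24, adjusted p = 0.0723). Tubb3.L, whose product is the β tubulin commonly used to mark neurons, read 22.8, 66.5 and 42.6 in R, against 3.40, 13.8 and 11.4 in S (2.31, SE 0.53, adjusted p = 0.0899). Tubb6.S, another β tubulin gene, read 73.4, 68.2 and 92.8 in R, against 37.3, 49.0 and 44.6 in S (0.84, SE 0.20, adjusted p = 0.0915). In all 3 the R arrays lay above the S arrays, with R2 the highest R array for tubb2b.S and tubb3.L and the lowest for tubb6.S. Tubulin transcripts are similar in sequence, so probes made for 1 of them may bind others.

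Ncam1.S, which encodes the neural cell adhesion molecule, read 8.29, 5.32 and 9.5 in R, against 1.75, 3.96 and 2.91 in S (1.46, SE 0.33, adjusted p = 0.0801), and here R2 was the lowest R array. Gap43.L, a growth cone gene that is raised in regrowing axons, read 9.81, 28.0 and 21.9 in R, against 4.20, 8.49 and 4.76 in S (1.72, SE 0.42, adjusted p = 0.106). Its homoeolog gap43.S did not separate the corneas (0.39, adjusted p = 0.795). Stmn1.S, which encodes the microtubule destabilising protein stathmin, read 71.2, 81.8 and 76.1 in R, against 53.0, 50.7 and 48.2 in S (0.59, adjusted p = 0.238), whereas stmn1.L overlapped (-0.29, adjusted p = 0.691).

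With array weights 5 members were higher, among them tubb2b.S (adjusted p = 0.0175), gap43.L (0.0323), ncam1.S (0.0335) and tubb6.S (0.0370). Without R1, tubb2b.S (0.0335) and gap43.L (0.0280) passed, and without R2, ncam1.S (0.0439) and syn2.L (0.0329). Syn2.L, the gene of the synaptic vesicle protein synapsin 2, read 3.26, 1.48 and 3.82 in R, against 1.30, 1.18 and 1.16 in S, and over all arrays was not called (1.12, adjusted p = 0.203).

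**Figure D2:**
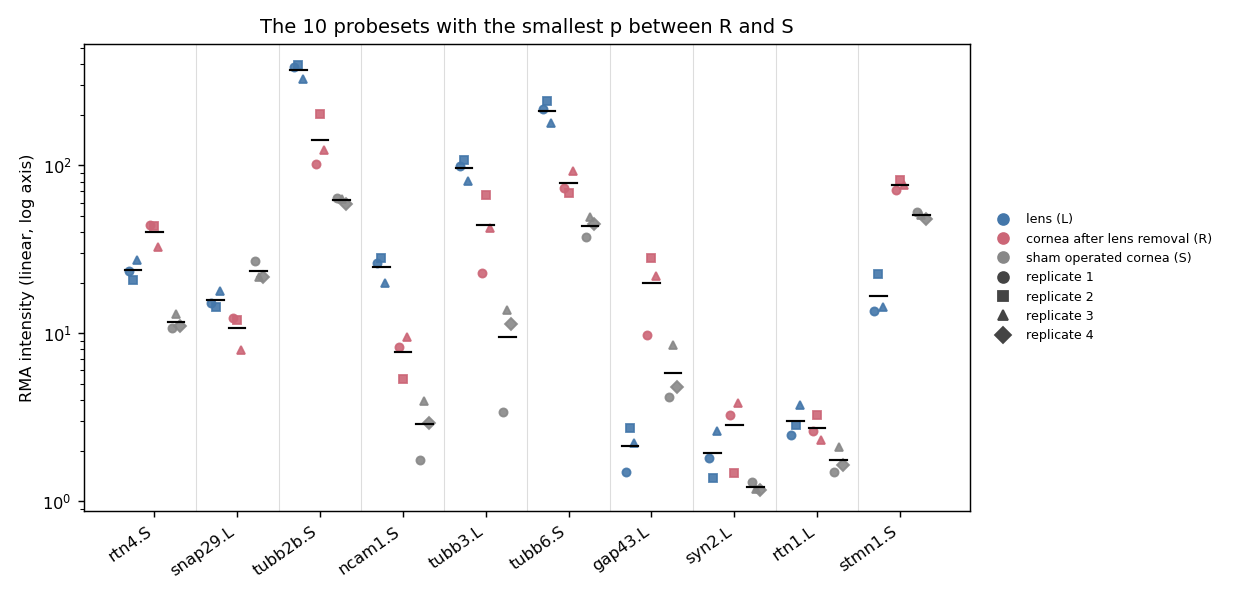
RMA intensity (linear values on a log axis) of the 10 members with the smallest p between R and S, on every array, with lens at the left, corneas undergoing CLT in the middle and sham operated corneas at the right of each gene; symbols mark the replicate number and black lines the group means. The R values lie above the S values for 9 of the 10 and below them for snap29.L, and the lens values lie highest for the tubulins and ncam1.S and lowest for gap43.L and stmn1.S.

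The lean differed between the roles. Of all probesets, 57.5% had the higher mean in R and 12.3% had every R array above every S array. The median log2 difference of all probesets was 0.06. Of 23 cytoskeleton and growth cone probesets, 19 had an R mean above the S mean, 11 had every R array above every S array, and the median log2 difference was 0.39. In vesicle fusion and secretion the numbers were 14 of 15, 4 and 0.28, and in transmitter receptors and GABA synthesis 15 of 16, 6 and 0.21. In the RNA binding and neurogenic factors they were 6 of 10, 2 and 0.10, near the values of all probesets. Of the 7 probesets grouped with the reticulons by name, 5 had the higher mean in R, 2 without overlap, and the median was 0.64. Among the 7 was rtn4ip1.L, whose gene encodes a partner of rtn4 and not a reticulon. All 5 adhesion probesets had the higher mean in R, 2 without overlap. The axon guidance ligands showed a higher mean in R for 8 of 9 probesets, but in none did the arrays separate. Among the guidance receptors 5 of 6 had the higher mean in R. Plxnb2.S, the gene of a semaphorin receptor, was the exception: it read 2.36, 2.17 and 2.42 in R, against 3.44, 3.00 and 2.73 in S (-0.40, adjusted p = 0.292).

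The other members with small p between R and S were not called either. The first of 2 probesets of dpysl3.L, which encodes a growth cone phosphoprotein, read 46.1, 35.3 and 29.4 in R, against 19.8, 28.4 and 20.6 in S, so that the groups did not overlap (log2 difference 0.68). The second did not overlap either (0.85). Elavl3.L, a neuronal RNA binding protein gene, had a difference of 0.40 at low intensity. Rtn1.L (0.64), chrna5.L (0.64), snap25.L (1.0), sema3fl.S (0.79), tubb.L (0.42) and 1 of the 3 grin1.L probesets (0.40) likewise had a positive difference. Their adjusted p values were between 0.232 and 0.358.

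In 6 members R2 read over 3 times the second R array (6.59% of members, against 1.40% of all probesets). Amph.L encodes amphiphysin, which bends membrane during the recovery of synaptic vesicles, and is the member that the study followed by real-time PCR. The primer pair designed for it, shown because it defines the transcript stretch that was followed, was:
Amph forward: acattggcacctgtctcatc
Amph reverse: gtaaaggtggaacaggagga
On the arrays amph.L read 1.97, 8.94 and 2.31 in R1, R2 and R3, against 1.66, 1.53 and 1.46 in S1, S3 and S4. The R arrays lay above the S arrays, narrowly so for R1 and R3, and the log2 difference of 1.15 (SE 0.49) was not called (adjusted p = 0.327). By real-time PCR the study reported amph as higher in CLT corneas, and also in lens, than in sham operated corneas.

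Ncam1.L, the homoeolog of ncam1.S, read 3.90, 12.4 and 1.69 in R, against 1.77, 2.43 and 2.50 in S, so that R3 lay below all S arrays. A probeset of rtn1.S, a reticulon gene of neural and endocrine cells, read 0.914, 10.02 and 0.711 in R, against 1.05, 0.967 and 1.03 in S. Its log2 difference was 0.88 with all arrays and -0.34 without R2, so that leaving out 1 array turned its direction. The other 3 were chosen for mention after their values were seen. They are an rtn1.L probeset whose name gives the same target cluster as that of rtn1.S (1.41, 16.4 and 1.58 in R, against 2.50, 1.61 and 1.76 in S), the secretory granule gene scg3.L (2.25, 7.60 and 1.57 in R, against 1.85, 1.57 and 1.95 in S) and snap23.L (3.23, 26.4 and 4.79 in R, against 4.15, 4.10 and 5.33 in S). In each of these R1 and R3 lay within or near the S range.

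Retina genes stood high on the same array. The 21 measured of 39 listed retina and photoreceptor markers summed to 233, 761 and 146 in R1, R2 and R3, against 118, 157 and 124 in S1, S3 and S4, and 20 of the 21 were highest in R2 among the R arrays. In the lens they summed to 305, 409 and 182 in L1, L2 and L3, with 16 of 21 highest in L2. Much of the lens sums was nrl.S, at 73.0, 68.8 and 67.0 in L1, L2 and L3, and gnb1.S, at 77.1, 82.5 and 50.0. Of the 91 members, 39 were highest in R2 (42.9%, against 31.9% of all probesets) and 38 in L2 (41.8%, against 33.4%). Among the retina markers, 1 was called higher in R than in S. At an unadjusted p under 0.05, 8 were higher and 0 lower, 8 did not overlap, and the median log2 difference was 1.55. The called gene, rom1.L, read 69.7, 288 and 7.15 in R, against 0.581, 0.713 and 0.430 in S. For this gene R1 and R3 were thus also above S. Gnb1.S, which made up much of the S sums, read 102, 146 and 101 in R, against 83.5, 123 and 88.1 in S. In lens, 10 were called higher than in S, nrl.S among them, and 1 lower, where 22.9% of all probesets were higher and 30.6% lower. Most of the retina markers were low in S, with 17 of 21 at a mean under 2. The part of retina RNA in the members' values was not tested.

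**Figure D3:**
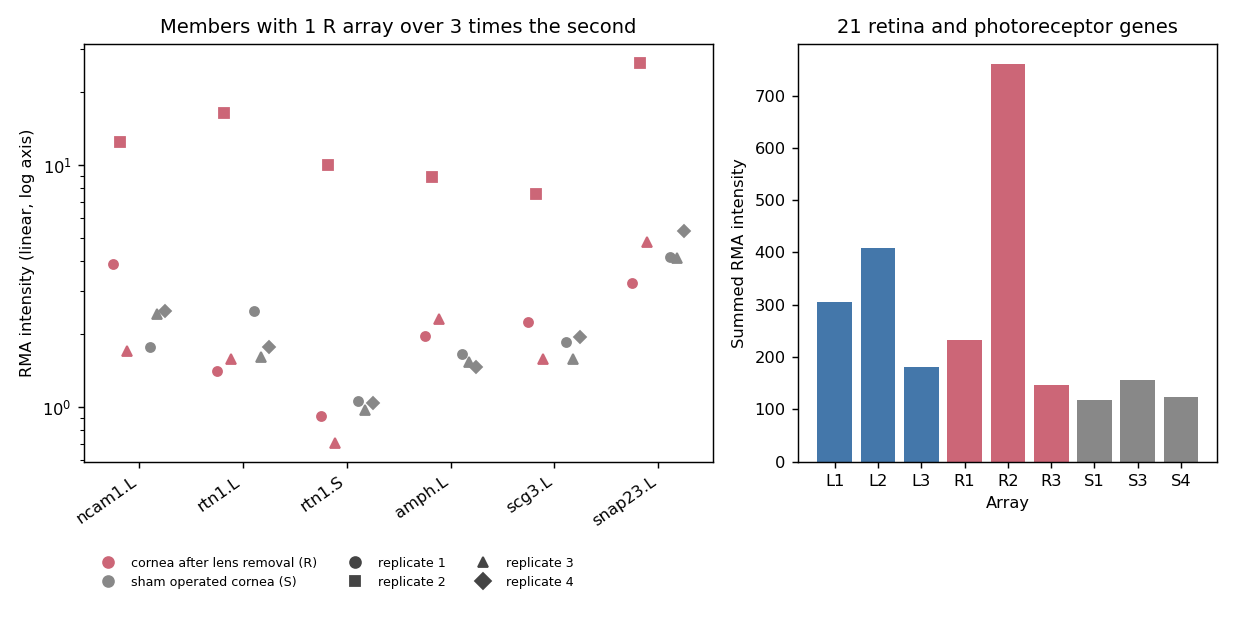
Left, RMA intensity (linear values on a log axis) of the 6 members in which 1 R array exceeded the second by over 3 times, in corneas undergoing CLT and, to their right, sham operated corneas; right, the summed RMA intensity of 21 retina and photoreceptor genes on each array. R2 is the high array in all 6 members and in the retina sum, which was 761 there and 118 to 409 on the other arrays.

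Neuron markers outside the chosen families gave a further view of the same tissue. Of 20 listed, 9 were measured, and they summed to 65.2, 93.1 and 45.9 in R1, R2 and R3, against 21.8, 28.5 and 26.1 in S1, S3 and S4, with no overlap. None of the 9 was called between R and S in limma, 6 were higher at an unadjusted p under 0.05, and 8 of them had a mean under 2 in S. Syp.L, the gene of the synaptic vesicle protein synaptophysin, read 28.6, 31.8 and 1.24 in R, against 1.03, 0.682 and 0.869 in S. The high level was thus in R1 and R2 and not in R3. Vamp2.S, a vesicle SNARE gene, read 24.4, 28.0 and 25.1 in R, against 12.4, 18.9 and 16.1 in S (adjusted p = 0.117). The 3 measured sensory neuron genes summed to between 4.06 and 4.82 in R, against 3.43 to 4.002 in S. Among glia and Schwann cell markers 4 were measured, which summed to 40.3, 76.8 and 78.3 in R, against 35.6, 68.2 and 48.8 in S. Much of these sums was pmp22.L, at 32.3, 29.4 and 68.7 in R, against 29.7, 54.9 and 41.0 in S. It was brighter in lens, at 139, 123 and 111. Mbp.S read 3.00, 40.3 and 3.48 in R, against 2.43, 8.07 and 3.55 in S, so that R2 stood out.

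The comparison with the lens gave many more calls. In lens, 32 members were higher than in sham operated cornea (35.2%) and 18 were lower (19.8%), where 22.9% of all probesets were higher and 30.6% lower, or 53.4% called in all. The lens mean was above the sham mean for 64 members (70.3%, against 50.5% of all probesets), and the median log2 difference was 0.42, where all probesets had 0.02. The balance depended on the level. Among the 35 members with a group mean above 8, 10 were higher (28.6%, against 17.7% of all such probesets) and 16 lower (45.7%, against 55.1%). Among the 56 dimmer members, 22 were higher (39.3%, against 26.9%) and 2 lower (3.57%, against 11.1%). With a filter that kept only the brighter members the median was -0.31, and that of all probesets -0.92. Without S1, 20 members were higher, and without S4, 23. Lens and CLT corneas are both set against the same S arrays, so the comparisons are not independent. The 9 neuron markers outside the families summed to 56.1, 52.8 and 48.3 in L1, L2 and L3, against 21.8, 28.5 and 26.1 in S1, S3 and S4, and 5 of them were higher in lens and none lower. Their part, and that of the retina genes named above, in the members' values was not tested.

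**Figure D4:**
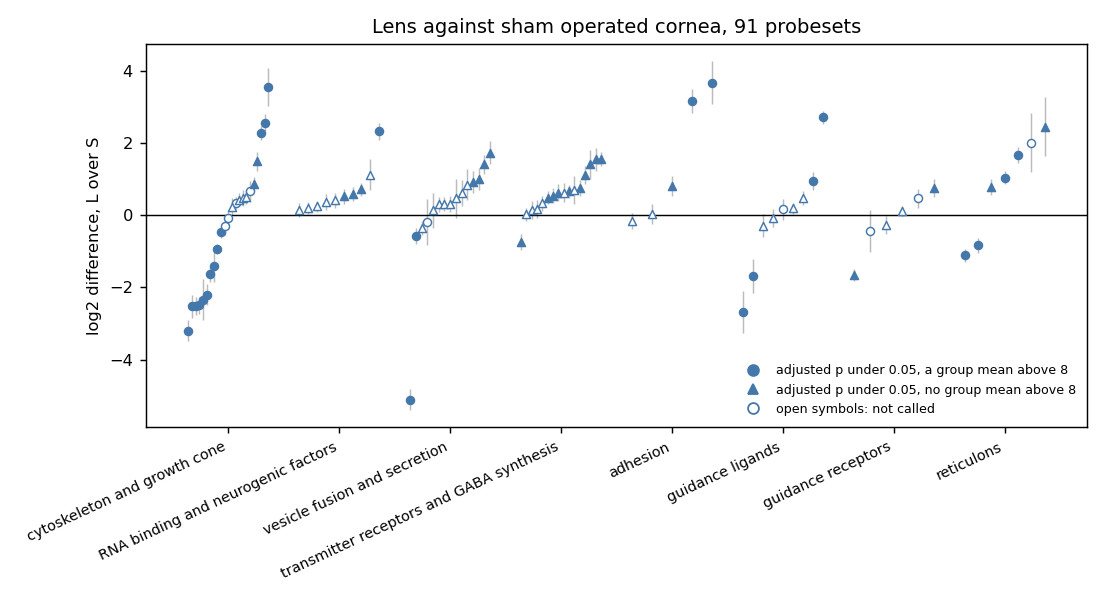
Log2 difference between lens and sham operated cornea (L over S) for each of the 91 probesets by role, with error bars of 1 SE; circles mark probesets with a group mean above 8 and triangles dimmer ones, and filled symbols those called in limma. The lowest point is syt1.L at -5.11 and the highest ncam1.L at 3.67, and most of the filled triangles lie between 0.5 and 2.5.

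The axon cytoskeleton divided by gene. The tubulins tubb2b.S, tubb3.L and tubb6.S were far higher in lens than in sham operated cornea. Tubb2b.S read 384, 394 and 325 in L (log2 difference 2.56, SE 0.24, adjusted p = 2.11e-05), tubb3.L 99.0, 107 and 80.9 (3.55, SE 0.53, adjusted p = 0.000424) and tubb6.S 216, 240 and 179 (2.28, SE 0.20, adjusted p = 1.09e-05), against the S values given above. In each of them the CLT corneas lay between lens and sham operated cornea, and the L and R arrays did not overlap. The difference between lens and CLT cornea was called for tubb2b.S (1.43, adjusted p = 0.000983) and tubb6.S (1.44, adjusted p = 0.000237) but not for tubb3.L (1.24, adjusted p = 0.0823).

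Other tubulins went the opposite way. Of all probesets with a group mean above 8, 55.1% were called lower in lens than in sham operated cornea. The median log2 difference of all such probesets was -0.915. Tubb4b.L, a β tubulin gene found in most tissues, read 84.3, 78.9 and 77.8 in L, against 162, 149 and 149.6 in S (-0.93, adjusted p = 0.000468, not called with cyclic loess), and tubb4b.S read 23.0, 25.5 and 12 in L, against 108, 74.3 and 85.2 in S (-2.20, adjusted p = 0.000166). The bright probeset of tubb4a.S read 205, 211 and 175 in L, against 284, 278 and 255 in S (-0.47, adjusted p = 0.0233), while its other probeset was not called (0.33, adjusted p = 0.109). The call for the bright probeset was lost with quantile normalisation, cyclic loess and the array number as a block, and without L3, S1 or S3.

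Among regulators of microtubules and the growth cone, stmn1, dpysl3 and gap43 were lower in lens. Stmn1.L read 7.39, 8.58 and 6.14 in L, against 93.4, 51.1 and 63.4 in S (-3.20, SE 0.29, adjusted p = 1.57e-05), and stmn1.S read 13.5, 22.5 and 14.2 in L, against 53.0, 50.7 and 48.2 in S (-1.64, adjusted p = 0.000149). The 3 dpysl3 probesets, of which 2 were made for the same dpysl3.L target, had log2 differences between -2.52 and -2.50. The first of those of dpysl3.L read 4.94, 4.02 and 3.17 in L, against 19.8, 28.4 and 20.6 in S (adjusted p = 2.61e-05). Gap43.L read 1.49, 2.72 and 2.22 in L, against 4.20, 8.49 and 4.76 in S (-1.41, adjusted p = 0.0193), and gap43.S 4.38, 6.66 and 1.05 in L, against 15.4, 17.8 and 14.3 in S (-2.34, adjusted p = 0.00662). The call for gap43.L did not hold with an offset of 8, with cyclic loess, or without L1 or S3. Every member probeset of stmn1, dpysl3 and gap43 was thus called lower in lens. Stmn3.S, named after its values were seen, read 3.66, 6.02 and 3.43 in L, against 1.21, 1.83 and 1.54 in S (1.49, adjusted p = 0.00126), and was called higher. Dpysl2.L (0.66, adjusted p = 0.0874), stmn4.S (0.48, adjusted p = 0.0985) and dpysl4.L (0.23, adjusted p = 0.457) had positive differences that were not called.

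Both ncam1 homoeologs were higher in lens. Ncam1.L read 29.9, 32.2 and 23.1 in L, against 1.77, 2.43 and 2.50 in S (3.67, SE 0.58, adjusted p = 0.000598), and ncam1.S read 26.2, 27.9 and 19.9 in L, against 1.75, 3.96 and 2.91 in S (3.16, SE 0.33, adjusted p = 3.69e-05). The lens and sham arrays were far apart for each, and the lens was also higher than the CLT corneas (2.69, adjusted p = 0.00400 and 1.70, adjusted p = 0.00197). Of the contactins, adhesion molecules of axons, cntn4.S was called higher in lens and the cntn1 homoeologs were not called.

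In vesicle fusion and secretion, syt1.L had the largest difference of all members. Synaptotagmin 1 is the calcium sensor that triggers vesicle release. Its probeset read 2.10, 1.72 and 1.10 in L, against 67.4, 45.7 and 52.7 in S (-5.11, SE 0.28, adjusted p = 6.05e-07), and in CLT corneas it read 70.4, 47.5 and 72.7, overlapping S (R over S 0.19, adjusted p = 0.794). The lens values lay under the array medians, so the size of the difference is not exact. Syn1.L, the gene of synapsin 1, read 3.81, 5.53 and 6.44 in L, against 2.35, 1.41 and 2.21 in S (1.40, adjusted p = 0.00139). The first of 2 snap25.S probesets, for a SNARE of the presynaptic membrane, read 4.37, 1.89 and 1.73 in L, against 0.737, 0.780 and 0.681 in S (1.73, adjusted p = 0.00137), below the 5th percentile in S. Snap29.L was lower in lens (-0.58, adjusted p = 0.0461), but quantile normalisation and cyclic loess turned that direction (0.40 and 0.44), and the call was also lost when L1, L2, S1, S3 or S4 was left out.

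Transmitter receptors and GABA synthesis had 9 of 16 probesets higher in lens and 1 lower. Among those higher were probesets of chrna1.2.L, chrna1.L and chrne.L, named after their values were seen. These are, like chrnd.L below, genes of muscle acetylcholine receptor subunits, so the count is not one of neuronal receptors alone. None of the 16 had a group mean above 8, and of all such probesets 26.9% were higher and 11.1% lower. Gria2.S, an AMPA type glutamate receptor gene, read 5.10, 3.95 and 6.60 in L, against 1.89, 1.61 and 1.73 in S (1.55, SE 0.20, adjusted p = 0.000162), and was also above the CLT corneas, at 2.06, 1.90 and 2.07 (1.34, adjusted p = 0.000441). Gad1.1.L, the gene of an enzyme that makes GABA, read 1.82, 4.13 and 2.60 in L, against 1.02, 0.787 and 0.987 in S (1.54, adjusted p = 0.00250), with S near the 5th percentile. The grin1.L probeset named above, for an NMDA receptor subunit, had a log2 difference of 0.48 (adjusted p = 0.0393), and the call was lost without L1, L2, R1, S1, S3 or S4 and with offsets, quantile normalisation, cyclic loess or the array number as a block. The 2 probesets of chrnd.L, a subunit of the muscle acetylcholine receptor, were called in opposite directions, at 0.66 (adjusted p = 0.00923) and -0.74 (adjusted p = 0.0216), and on no array did either exceed 2.19. The first of these calls was lost with cyclic loess (0.0968), the array number as a block (0.0924) and without R2 and S4 together (0.0646), and the second without L1, L3 or S3 or with an offset of 8.

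Of the RNA binding and neurogenic factors, all 10 probesets had the higher mean in lens, as did 50.5% of all probesets, and 4 were called higher, where 22.9% of all were. Elavl1.S, which encodes an RNA binding protein found in most cells, read 11.3, 14.4 and 13.3 in L, against 3.13, 2.39 and 2.32 in S (2.32, SE 0.24, adjusted p = 3.94e-05), and the CLT corneas lay with sham at 1.58, 2.83 and 2.43. Elavl3.L, its neuronal relative, read 2.41, 2.27 and 2.01 in L, against 1.46, 1.21 and 1.42 in S (0.71, adjusted p = 0.00621).

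Axon guidance ligands moved both ways. Slit2.S read 12.2, 12.4 and 10.6 in L, against 1.68, 1.72 and 1.98 in S (2.71, SE 0.17, adjusted p = 1.56e-06), and against 2.13, 1.94 and 2.62 in CLT corneas (2.40, adjusted p = 3.69e-06). Slit1.S was lower in lens on 2 of its 3 probesets, which read 1.24, 3.76 and 1.98 (-2.68, adjusted p = 0.00326) and 2.55, 4.8 and 2.46 (-1.68, adjusted p = 0.0129) in L, against 8.19, 21.3 and 13.9 and 7.00, 14.8 and 9.64 in S. These 2 probesets were made for the same target and are of types that can bind several transcripts, and the second lost its call without S3, with an offset of 8 or with cyclic loess. The third probeset, of another target, had a difference of the opposite sign that was not called: it read 2.08, 1.75 and 1.94 in L, against 1.21, 1.34 and 1.57 in S (0.49, adjusted p = 0.0587). Sema3a.L, a repellent of growing axons, read 87.8, 90.7 and 72.9 in L, against 33.7, 59.2 and 40.9 in S (0.94, adjusted p = 0.0128), with the call lost without S1 or with the array number as a block.

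Between lens and sham operated cornea, the 6 guidance receptor probesets gave 1 call in each direction. Of all probesets, 22.9% were higher and 30.6% lower. Nrp1.L, the gene of a semaphorin co-receptor, read 3.11, 2.74 and 2.32 in L, against 1.40, 1.92 and 1.55 in S (0.75, adjusted p = 0.0249), a call lost without L1, L2, S1 or S4, with cyclic loess and with the array number as a block. Plxnb2.S read 0.977, 0.880 and 1.05 in L, against 3.44, 3.00 and 2.73 in S (-1.66, adjusted p = 2.28e-05), with L near the 5th percentile. Of the robo receptors of the slits, robo1.L and both robo3.S probesets were not called in any comparison.

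Among the reticulons the rtn4 homoeologs differed. Rtn4.L read 246, 210 and 196 in L, against 429, 570 and 419 in S (-1.12, SE 0.19, adjusted p = 0.000904). Rtn4.S read 23.5, 20.8 and 27.4 in L, against 10.7, 13.0 and 11.1 in S (1.04, SE 0.19, adjusted p = 0.00128), so that its order was CLT cornea, lens, sham operated cornea. The log2 difference of lens over CLT cornea was -0.74 (adjusted p = 0.00904), and quantile normalisation and cyclic loess turned it (0.068 and 0.27). Rtn4ip1.L, grouped here by its name, encodes a mitochondrial partner of rtn4. It read 11.7, 11.8 and 15.8 in L, against 4.31, 4.13 and 3.81 in S (1.67, adjusted p = 0.000206). Rtn1.S, with its probeset high in R2, read 4.48, 6.95 and 5.54 in L, against 1.05, 0.967 and 1.03 in S (2.45, SE 0.82, adjusted p = 0.0312), a call lost when any single L or S array was left out. Rtn3.L was lower in lens (-0.84, adjusted p = 0.00636), a call lost with quantile normalisation and a direction that cyclic loess turned (0.10). Of all probesets with a group mean above 8, as rtn3.L and rtn4.L had, 55.1% were called lower in lens. The median log2 difference of all such probesets was -0.915.

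**Figure D5:**
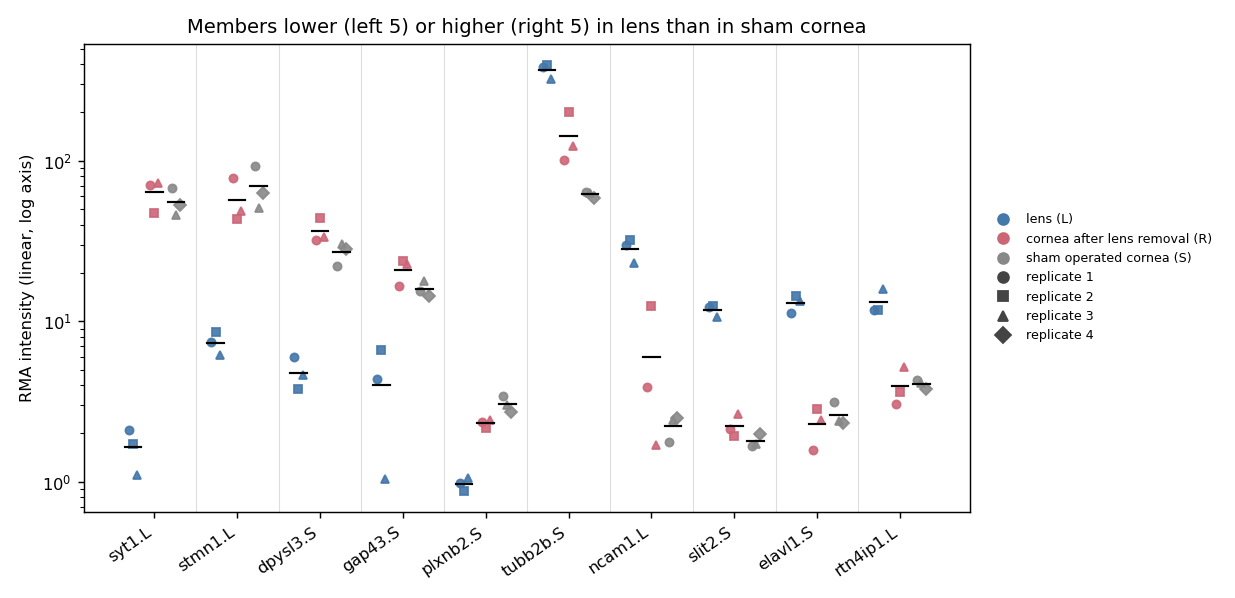
RMA intensity (linear values on a log axis) on every array for 5 members lower and 5 members higher in lens than in sham operated cornea, with lens at the left, corneas undergoing CLT in the middle and sham operated corneas at the right of each gene; symbols mark the replicate number and black lines the group means. For syt1.L and stmn1.L the corneas of both operations overlap and lie far above the lens. For dpysl3.S both also lie far above the lens, with every R array above every S array. For slit2.S, elavl1.S and rtn4ip1.L the corneas of both operations overlap and lie below the lens, whereas tubb2b.S in R lies between.

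Against the CLT corneas, 17 members were higher in lens (18.7%, against 18.6% of all probesets) and 18 were lower (19.8%, against 30.2%), with 48.8% of all probesets called. The median log2 difference was 0.15, where all probesets had -0.07. With quantile normalisation 22 were higher and 15 lower, where all probesets had 24.9% higher and 21.7% lower.

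Of the 18 genes with several probesets, the calls between lens and sham operated cornea were the same for 9, mixed with probesets that were not called for 7, and opposite for chrnd and rtn4. Of the 67 genes, 29 had a probeset called higher and 12 a probeset called lower, with chrnd and rtn4 counted in both. A gene with several probesets has more chances to be counted, and no such count was made over all genes. Of all probesets, 22.9% were higher and 30.6% lower.

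Other genes of the same pathways were taken from lists, beside the 22.9% of all probesets that were higher and the 30.6% that were lower in lens than in sham operated cornea. Of 16 measured ephrin, netrin and other guidance genes, 5 were higher and 1 lower in lens, and none was called between R and S, where the median log2 difference was 0.11 and no gene reached an unadjusted p under 0.05. Efnb2.S, a membrane bound ephrin ligand gene, read 7.39, 8.81 and 8.10 in L, against 1.21, 1.35 and 1.24 in S (2.67, adjusted p = 1.61e-06).

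Of 10 presynaptic and vesicle genes, 4 (syp, vamp2, cplx1 and chga) were also among the 9 neuron markers above. Of the other 6, none was higher and 3 were lower in lens, and none was called between R and S in limma (1 higher at an unadjusted p under 0.05). Nsf.L, whose product takes SNARE complexes apart, read 7.40, 6.41 and 4.95 in L, against 31.9, 25.7 and 32.8 in S (-2.28, adjusted p = 8.13e-05). Of 8 neuronal cytoskeleton and growth genes, 5 (map2, mapt, prph, ina and celf3) were among the same 9 markers and gave 4 of the 5 calls higher in lens. Among them prph.S, the gene of the neuronal intermediate filament peripherin, read 4.24, 4.22 and 5.14 in L, against 1.21, 0.845 and 1.30 in S (2.04, adjusted p = 2.49e-05). Of the other 3, marcks.S was higher (0.69, adjusted p = 0.0270) and basp1.L lower (-1.43, adjusted p = 0.000127) in lens, l1cam.S was not called, and none reached an unadjusted p under 0.05 between R and S.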

How the data were processed

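The authors amplified RNA from each tissue pool with the NuGEN Ovation system, hybridised it to Affymetrix *Xenopus laevis* GeneChips and computed RMA in GenePattern. The deposited table holds RMA intensity on a linear scale for 15611 probesets. How background was treated, how arrays were normalised and which software versions ran is not given in the sources used here. No counts underlie the values, and the number of arrays limits the precision. The labels do not say how animals were divided over pools, and p values reflect the spread between pools alone. They count S4 as an independent pool, and p values against S may be too small if it was not, which was not tested.

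After removal of 135 control probesets, 15476 were taken to log2 (offset 0) with no filter. Of these 9296 had 1 gene symbol, 195 several and 5985 none. Of the 91 members, 88 were matched by gene ID in RefSeq (Xenopus_laevis_v10.1), and none was renamed. The 3 groups were compared in 1 limma 3.58.1 fit (R 4.3.3, statmod 1.5.0, two-sided), and figures were drawn in python 3.11.15 with matplotlib 3.10.9. The fit was tested on simulated data. Deviations from the group means correlated at -0.10 to 0.13 between arrays of the same number. Between L and R they correlated at 0.022, 0.13 and 0.091 for numbers 1, 2 and 3. For L and R arrays of unlike number the range was -0.13 to 0.018. The labels do not say whether a number marks shared animals, and these correlations cannot settle it. The main fit treated all arrays as unpaired.

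Members and gene lists were chosen with earlier results of these data known. For the list summaries 1 probeset was taken per gene, with the highest mean. Members were named if called between R and S or among the 20 with the smallest p there; if they had the largest or the second largest called difference between L and S in either direction in their role; if among the 5 brightest of a group; if their gene had opposite calls; or if they were amph. This named 43 probesets of 33 genes. Alternatives were offsets of 1 and 8, 3 further scalings, a filter (a group mean above 8), fits of 2 groups, a replicate block, array weights, trended and robust eBayes, each array left out, R2 and S4 left out, 1 probeset per gene, and leaving out broadly expressed families. Leaving out R2 or S4 for the lead counts was added after the data were seen. The real-time PCR was not analysed here.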

Additional observations from a re-analysis of the deposited data

How the results depend on the processing

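The counts of members between R and S were small and moved with the settings. The 1 member higher became 2 with the filter on low values, 4 with trended and robust eBayes, 5 with array weights and 0 with the replicate block, without R2 and S4 together, with 1 probeset per gene and without the broadly expressed families. It ran from 1 to 3 when single arrays were left out. The 1 member lower became 0 with the 2-group fit, with the replicate block, without R2 and S4 together and without the broadly expressed families, and was 0 or 1 when single arrays were left out. Between L and S the 32 higher became 10 with the filter and 20 with the replicate block, and ran from 20 to 33 over single arrays left out. The median of 0.42 became 0.065 with an offset of 8 and -0.31 with the filter. Between L and R the 17 higher became 9 with the filter, and the median of 0.15 became -0.62. The filter left 35 members; the cause of the other changes was not tested.

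Of the named probesets, rtn1.S turned between R and S without R2 (-0.34, in a range up to 1.57 over single arrays left out) and without R2 and S4 (-0.32). Rtn3.L turned between L and S with cyclic loess (0.10) and between L and R with quantile normalisation (0.033) and cyclic loess (0.15). Rtn4.S turned between L and R (0.068 and 0.27) and snap29.L between L and S (0.40 and 0.44) with the same scalings. Quantile normalisation moved the median of all probesets by 0.12 between L and S and by 0.19 between L and R. In pairs of a named probeset and an alternative, 425 between R and S, 637 between L and S and 377 between L and R kept their direction and side of the threshold. With the direction kept, 12, 68 and 32 lost a call and 12 between R and S gained it. A further 2, 3 and 4 turned direction, and those between L and S and between L and R also lost their call. Whether the array numbers pair the samples is not known. Of the members, 44 had means under 3 in all groups, at or under about the array medians, and their signal over background is not known.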
